A study of Rattus norvegicus with 20 samples.

Results

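Dorsal root ganglia of sham-operated rats collected at 50 days were set against sham ganglia collected at 21 days, to describe the expression profile of ganglia whose nerve was not injured and how far it moved between these days. The arrays were taken by their labels, 2 for Sham 50d and 3 for Sham 21d, and are 5 of the 20 arrays of the series. The series also holds ganglia after chronic constriction injury of the sciatic nerve and after the Seltzer injury, which its labels call a nerve transection, in 8 groups at 14, 21 or 50 days. Each sample was total RNA from ganglia on the operated side of the body, read on 1 Affymetrix rat array. Besides the groups compared, values are given for Sham 14d (2 arrays), Seltzer 50d (2 arrays) and Seltzer 21d (3 arrays). The sources used here give no strain, sex, age, spinal level or number of animals per sample. Nor do the labels say whether the replicates were separate animals. The p-values therefore cover only the spread between these arrays, which may be technical.

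A dorsal root ganglion holds the cell bodies of sensory neurons, whose axons run in peripheral nerves and into the spinal cord. Large neurons with myelinated axons carry touch and limb position and are rich in neurofilaments. Small neurons, the nociceptors, carry pain and temperature and use neuropeptides, sodium channels of their own and ATP receptors. Satellite glia wrap the cell bodies, Schwann cells wrap the axons, and fibroblasts, vessels and macrophages lie between them.

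The markers of sensory neurons, Schwann cells and fibroblasts fitted the label. Of 9 sensory neuron markers 8 were above background on all 5 arrays, as were 4 of 6 Schwann cell and 4 of 5 fibroblast markers. Other cells of the ganglion were read less well. Of 6 satellite glia markers 2 were above background on all 5 arrays and 3 on none. Of 6 macrophage markers 1 was above background on all 5 arrays and 4 on none. Deposited intensities of dim probe sets run below 0, and a value counted as above background when it exceeded the size that 95% of its array's negative values stay under. The markers measured for T cells (4), mast cells (4), endothelium (3), smooth muscle (4), fat (4) and spinal cord (3) were above background on none of the 5 arrays. The 5 markers of skeletal muscle, which is not ganglion tissue, were each above background on at least 1 array. Their summed intensity was 679 and 1002 in Sham 50d, against 4541, 4929 and 4797 in Sham 21d.

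Sham 21d replicate 1 stood apart from the other sham arrays. Its highest intensity was 26056, against 5258 to 12222 on the other 6 sham arrays. Spearman's rho with those 6 arrays, across 8740 probe sets, was 0.757 to 0.82, while rho among the 6 was 0.846 to 0.929. The Sham 50d arrays correlated with each other at 0.925 and Sham 21d replicates 2 and 3 at 0.929. The background level was 300.2 ± 34.5 in Sham 50d and 233 ± 71.0 in Sham 21d (SD, n = 2 and 3), and the groups overlapped.

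The control probe sets for GAPDH and actin, which read the 3′ end, the middle and the 5′ end of housekeeping mRNAs, were dimmer at 50 days at every position. GAPDH 3′ was 1543 and 1480 in Sham 50d, against 4518, 3512 and 3534 in Sham 21d. The middle of GAPDH was 543 and 519 in Sham 50d, against 4526, 2776 and 2671 in Sham 21d, so the gap was wider there. Actin 3′ was 568 and 473 in Sham 50d, against 1667, 1390.2 and 1328 in Sham 21d. No control signal overlapped between the groups. The ratio of the 3′ to the middle signal of GAPDH, which grows when RNA is degraded or copied only in part, was 2.85 ± 0.0065 in Sham 50d and 1.20 ± 0.173 in Sham 21d (SD, n = 2 and 3). An exact two-sided permutation test gave p = 0.2, the smallest that 10 splits of these arrays allow. The GAPDH 3′ to 5′ ratio was 3.52 and 2.93 in Sham 50d, against 3.10, 1.90 and 2.15 in Sham 21d, and overlapped through Sham 21d replicate 1. For actin the 3′ to middle ratio ran the other way, 0.755 ± 0.0757 in Sham 50d and 1.15 ± 0.0404 in Sham 21d (exact two-sided p = 0.2). Both 50-day arrays share these signals and ratios, so RNA quality and time cannot be told apart in any difference below. The 5S ribosomal RNA control was 461 and 484 in Sham 50d, against 305, 238 and 268 in Sham 21d.

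**Figure D1:**
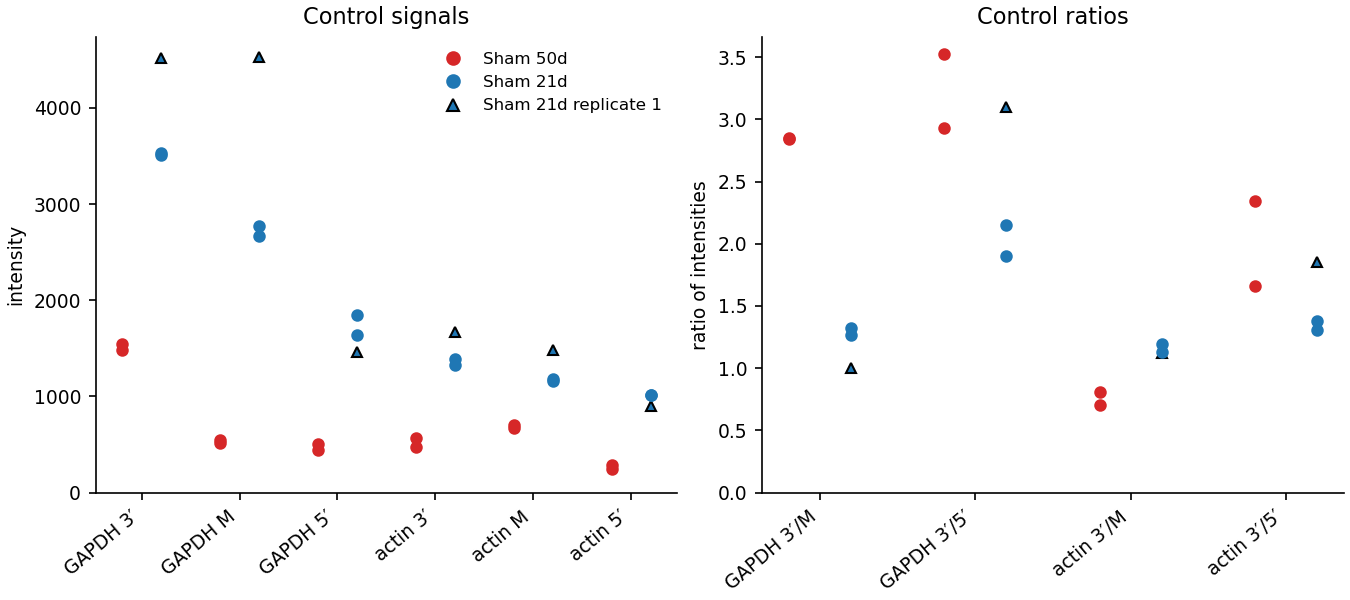
Intensity of 6 control probe sets (left) and 4 ratios of them (right) on the 2 Sham 50d arrays (red), the 3 Sham 21d arrays (blue) and, as triangles, Sham 21d replicate 1. Each point is 1 array. All 6 signals are lower on the 50-day arrays, the GAPDH 3′ to middle ratios are 2.84 and 2.85 there, and the GAPDH 3′ to 5′ ratios overlap.

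The 30 genes of sham ganglia with the highest mean over the 5 arrays included 7 genes of neurons: the surface protein gene Thy1, the neurofilament subunits Nefl, Nefm and Nefh, the sensory intermediate filament gene Prph, the neuronal ubiquitin hydrolase gene Uchl1 and the synuclein gene Sncg. They also included 6 subunits of cytochrome c oxidase (COX1, COX2, COX3, Cox4i1, Cox6a1 and Cox8a), the compact myelin gene Pmp22 and the lipid carrier gene Apoe, which satellite glia make. Tuba1b, Rps29, Ywhah (a 14-3-3 protein), Gnas (a G protein subunit), Hsp90ab1, Atp1b1 (a subunit of the sodium pump), Scd2 (a fatty acid desaturase) and Hbb (beta globin) were among the rest. Signals of different probe sets depend on their probes, so this order is one of signal and not of transcript number.

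None of the 30 passed the test used throughout, and 3 had an unadjusted p under 0.05. Among genes above 250, 17.2% passed and 549 of 1308 had an unadjusted p under 0.05. Changes are differences of mean log2(intensity + 16), Sham 50d minus Sham 21d, with values below 0 set to 0. They were tested with limma across all 8 groups, adjusted over 8740 probe sets and called higher or lower at an adjusted p under 0.05. Thy1 was 11185 and 9384 in Sham 50d, against 21771, 6554 and 6881 in Sham 21d. Nefl was 9438 and 7824 in Sham 50d, against 19046, 5341 and 5535 in Sham 21d. For both genes the highest and the lowest of the 5 values lay in Sham 21d. Of the 30, Apoe spanned the widest range, 5369 and 4454 in Sham 50d, against 22916, 3349 and 3535 in Sham 21d, where replicate 1 alone lay above the Sham 50d values. Of the genes without overlap, COX2 came nearest the threshold with 7265 and 6998 in Sham 50d, against 4045, 4110.04 and 4403 in Sham 21d, a change of 0.77 (SE 0.24, adjusted p = 0.0816). COX2 passed under 5 of 19 alternative settings, and Abcd3, another of the 30, under 3. The lack of a call thus does not show that the 30 were unchanged. Prph was 3993 and 4157 in Sham 50d, against 6267, 4217 and 4211 in Sham 21d, just short of overlap, and Uchl1 was 4538 and 4289 in Sham 50d, against 6383, 4252 and 3706 in Sham 21d, with overlap. Hbb, which marks blood, was 6213 and 5835 in Sham 50d, against 6499, 5077 and 4928 in Sham 21d, and overlapped.

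**Figure D2:**
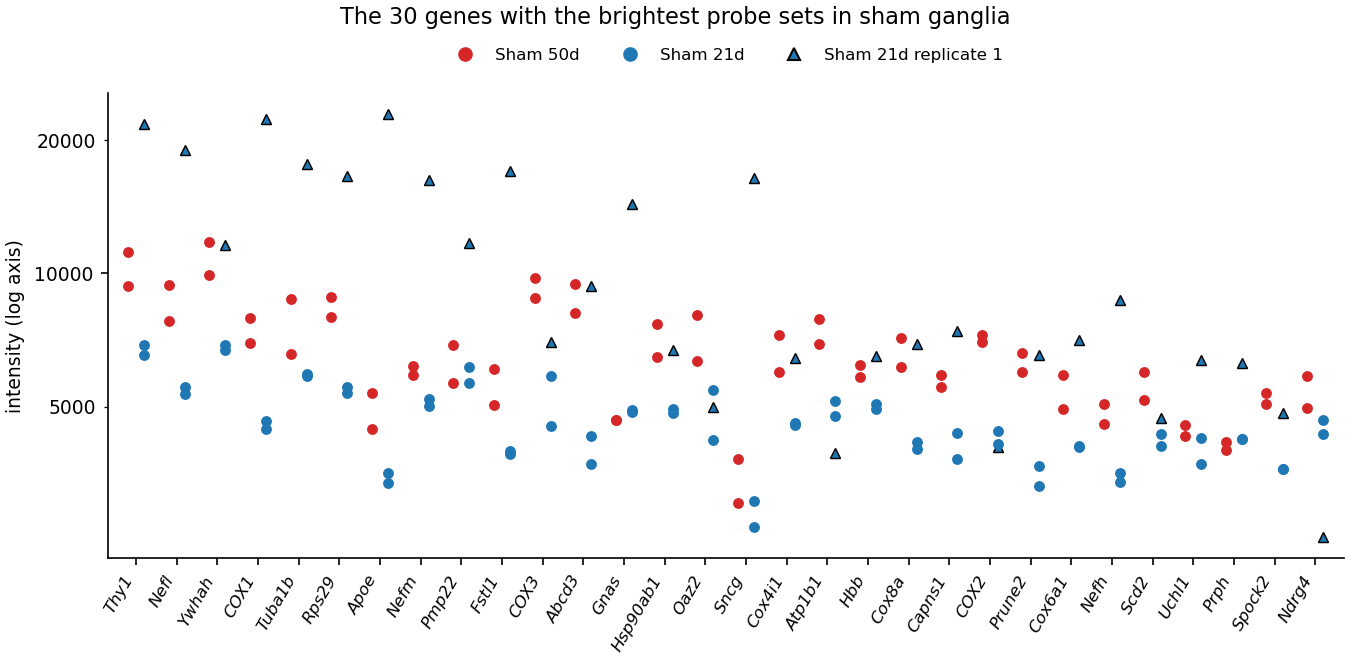
Intensity on a log axis of the 30 genes with the highest mean over the 5 arrays, for Sham 50d (red), Sham 21d (blue) and Sham 21d replicate 1 (triangles). Each point is 1 array. Thy1, Nefl, COX1, Apoe and Sncg reach 16429 to 22916 on Sham 21d replicate 1 and at most 11185 on the other arrays.

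Over all probe sets the profiles differed widely. In all, 652 of 8740 probe sets (7.46%) passed the test, 231 higher (2.64%) and 421 lower (4.82%) at 50 days, while 1720 passed 0.05 without adjustment, against 437 by chance. The values did not overlap for any of the 652, nor for 3685 of all probe sets (42.2%). The excess of lower calls depended on dim values: with intensities under 200 set to 200, 230 probe sets were higher and 211 lower, and among those with a mean above 250 over all 20 arrays 276 were higher and 285 lower. Among 2004 probe sets with a mean above 250 in either group, 431 passed (21.5%), 188 higher (9.38%) and 243 lower (12.1%), with a median change of 0.21. Their values did not overlap for 1321 (65.9%). That filter takes in probe sets that are high in only 1 group, and so must differ. Of the 1364 above 250 in both groups 277 passed (20.3%), 144 higher and 133 lower. The 20 probe sets just inside the filter, with means of 250.1 to 252.8, held 1 call and a median change of -0.60, and the 20 just outside held 1 call and a median of 0.40.

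Counted once per gene, on the brightest of its probe sets, 329 of 4736 genes passed (6.95%), 137 higher (2.89%) and 192 lower (4.05%), with a median change of 0. Of 1308 such genes above 250, 225 passed (17.2%), 118 higher (9.02%) and 107 lower (8.18%), with a median of 0.28. Without Sham 21d replicate 1 the calls over all probe sets numbered 572, and without Sham 50d replicate 1 or 2 they numbered 313 and 365. In a lysate of whole ganglia, fewer cells of a type and less RNA per cell cannot be told apart.

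**Figure D3:**
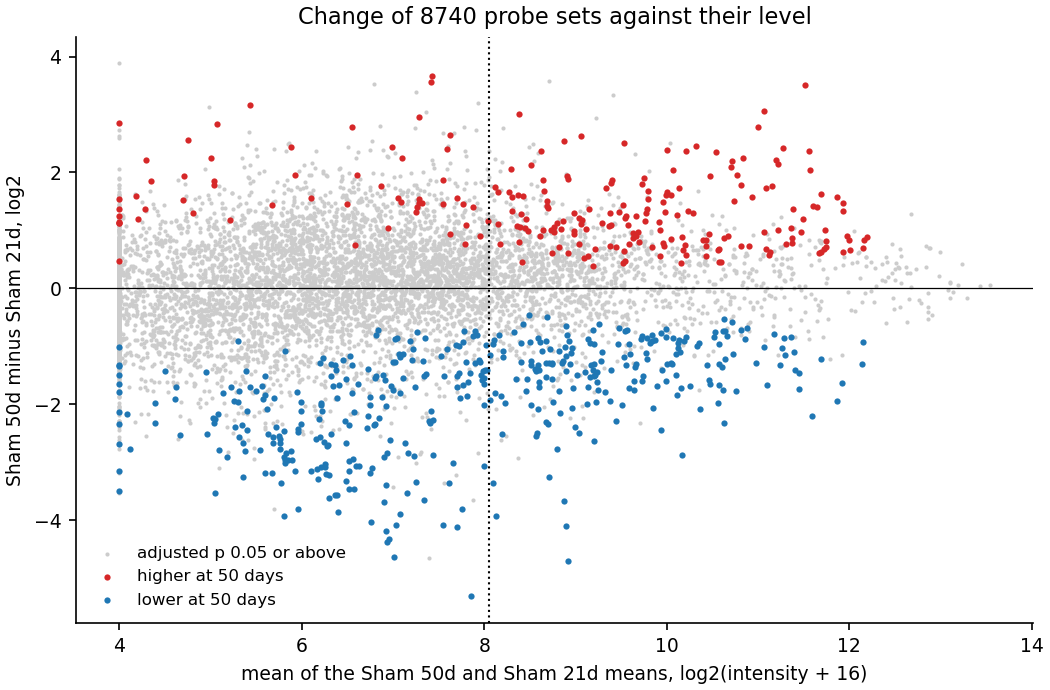
Change of 8740 probe sets (log2, Sham 50d minus Sham 21d) against the mean of both group means as log2(intensity + 16). Red points passed as higher and blue points as lower at 50 days, grey points did not pass, and the dotted line marks an intensity of 250. The 231 red and 421 blue points lie on both sides of that line, and the 30 brightest genes named above are among the grey points.

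The 14 genes with the largest rises were taken from called probe sets above 250, none of which overlapped between the groups. Among the 14 was a probe set for Rpl19l4. Its symbol marks a ribosomal protein L19-like gene, so which copy the probes measure is uncertain. Rpl19l4 was 5731 and 4949.9 in Sham 50d, against 529, 425 and 413 in Sham 21d, a change of 3.51 (SE 0.25, adjusted p = 3.38e-06) and 11.4-fold. Tpm3, a tropomyosin of the cytoskeleton and slow muscle, was 3784 and 3271 in Sham 50d, against 303, 744 and 534 in Sham 21d, a change of 2.79 (SE 0.40, adjusted p = 0.000776) and 6.92-fold. Of its 4 other probe sets 1 passed as lower, by -0.87, below background. Myh8, the myosin heavy chain of perinatal muscle, was 2972 and 2411 in Sham 50d, against 743, 525 and 599.96 in Sham 21d, 4.26-fold.

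Gstt2, a glutathione transferase, was 2522 and 2388 in Sham 50d, against 279, 658 and 546 in Sham 21d, 5.13-fold, and Slc3a1, a subunit of amino acid transporters, was 5077 and 4756 in Sham 50d, against 407, 1429 and 1394 in Sham 21d, 5.18-fold. Both genes had their lowest value on Sham 21d replicate 1. Sv2b, a glycoprotein of synaptic vesicles, was 2734 and 2752 in Sham 50d, against 458, 882 and 815 in Sham 21d, a change of 1.96 (SE 0.33, adjusted p = 0.00253) and 3.9-fold. Hnrnpa1, an RNA-binding protein, was 721 and 761 in Sham 50d, against 139.7, 212 and 199 in Sham 21d, 3.85-fold, and the neuronal pentraxin gene Nptx1 was 557 and 575 in Sham 50d, against 54.8, 202 and 137 in Sham 21d, at least 2.39-fold. A second probe set of Nptx1 passed too, with a change of 1.78 and a 3.44-fold difference. A fold is written as "at least" where no array of the dimmer group exceeded background, and then counts from that background level.

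The other rises were those of Dkc1 (part of the small RNA-guided pseudouridine synthase), Mettl7b, Foxe3, Thra (a thyroid hormone receptor), Nptn and Fam162a. Nptn was 320.2 and 313 in Sham 50d, against 53.9, -56.3 and -14.2 in Sham 21d, at least 1.37-fold, and Fam162a was at least 1.25-fold higher. With limma fitted to only the 5 arrays compared, 11 of the 14 rises did not pass (adjusted p from 0.0759 to 0.433). Rpl19l4, Myh8 and Hnrnpa1 passed in that fit. In the fit of all groups Rpl19l4, Tpm3, Gstt2, Myh8, Sv2b and Hnrnpa1 passed with each of the 5 arrays left out in turn. The other 8 ended when either 50-day array was left out (adjusted p from 0.0625 to 0.197), and Fam162a and Thra also without Sham 21d replicate 1 (adjusted p from 0.057 to 0.0854).

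The 14 largest falls, like all 652 called probe sets, were free of overlap. In each of these falls the 50-day value was below background on both arrays. Ctsd, the lysosomal protease cathepsin D, was -294 and -202 in Sham 50d, against 1051, 356 and 631 in Sham 21d, a change of -5.31 (SE 0.44, adjusted p = 1.4e-05) and at least 2.02-fold lower. The other probe set of Ctsd, 521 and 563 in Sham 50d, against 326, 701 and 621 in Sham 21d, changed by 0.05, which did not pass. Ckm, the creatine kinase of muscle, was -62.9 and 59.2 in Sham 50d, against 1372, 707 and 735 in Sham 21d, a change of -4.71 (SE 0.57, adjusted p = 0.000211) and at least 2.89-fold lower. Myl11, a light chain of fast muscle myosin, was 4.04 and 3.32 in Sham 50d, against 262, 514 and 236 in Sham 21d, at least 1.06-fold lower, and its second probe set passed in the same direction.

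Prdx3, a peroxidase of mitochondria, and Rpl26, a ribosomal protein, fell on both of their probe sets. Hspb1, a small heat shock protein, fell on 1 of 4 probe sets, -227 and -104 in Sham 50d, against 441, 283 and 448 in Sham 21d. Both 50-day values were set to 0, as for Ctsd. The other probe sets of Hspb1 changed by 0.03, -0.68 and 1.19 and did not pass. Dcn, the matrix proteoglycan decorin, fell on 1 of 4 and Vamp1, a vesicle fusion protein, on 1 of 2. The remaining falls were those of Ptprs (a receptor phosphatase of axons), Csnk2b, Cdk5 (a kinase of neurons), Gps1, Psme2 (an activator of the proteasome) and Cox6a2, the muscle form of a cytochrome c oxidase subunit. With limma fitted to only the 5 arrays compared, Ckm, Dcn, Gps1, Psme2, Csnk2b and Cox6a2 did not pass (adjusted p from 0.0662 to 0.229). In the fit of all groups Ctsd, Ckm, Hspb1, Vamp1, Prdx3, Myl11, Dcn and Gps1 passed with each of the 5 arrays left out in turn. The other 6 ended when either 50-day array was left out (adjusted p from 0.0553 to 0.227), and Cdk5, Csnk2b and Cox6a2 also without Sham 21d replicate 1 (adjusted p from 0.0625 to 0.121). With intensities under 200 set to 200, which shrinks falls to below that level, 11 of the 14 did not pass (adjusted p from 0.0842 to 0.599), and Ctsd, Ckm and Vamp1 did. Hspb1, Prdx3, Myl11, Dcn and Gps1 are among the 11.

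**Figure D4:**
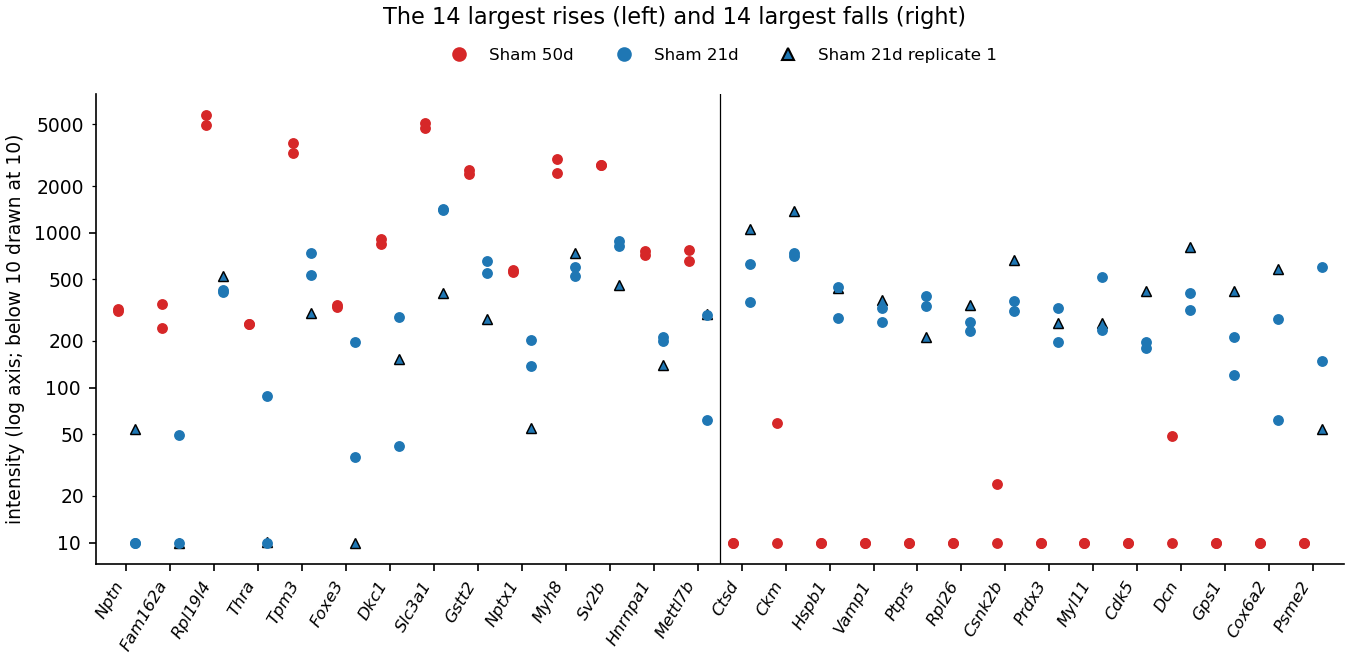
Intensity on a log axis of the genes with the 14 largest rises (left) and the 14 largest falls (right), for Sham 50d (red), Sham 21d (blue) and Sham 21d replicate 1 (triangles), with values below 10 drawn at 10. Each point is 1 array. The groups are apart in all of these genes, as in every called probe set, and no 50-day value of a falling gene is above its array's background.

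Several genes of skeletal muscle fibres were lower at 50 days. Acta1, the actin of muscle fibres, was 312 and 262 in Sham 50d, against 1383, 1803 and 1741 in Sham 21d, a change of -2.45 (SE 0.21, adjusted p = 1.62e-05) and at least 5.23-fold lower. Myh4, the myosin heavy chain of fast fibres, was 235 and 192 in Sham 50d, against 711, 1291 and 1427 in Sham 21d, a change of -2.28 (SE 0.41, adjusted p = 0.00429) and at least 3.52-fold lower. Both genes were above background on all 3 arrays of Sham 21d and on neither of Sham 50d. The starts of Acta1, Ckm and Myh4 are shown as the promoters of 3 fibre genes that fell together, from 250 bases before to 50 bases after the start, taken from RefSeq on GRCr8. They lie at chr19:68784145-68784444 on the minus strand for Acta1, chr1:88189211-88189510 on the plus strand for Ckm and chr10:52421898-52422197 on the plus strand for Myh4. Capitals mark matches on either strand to TATAAA, the TATA box, and to CAGCTG, an E-box of the kind that muscle regulators of the MyoD family bind, and the motifs do not overlap.
Acta1: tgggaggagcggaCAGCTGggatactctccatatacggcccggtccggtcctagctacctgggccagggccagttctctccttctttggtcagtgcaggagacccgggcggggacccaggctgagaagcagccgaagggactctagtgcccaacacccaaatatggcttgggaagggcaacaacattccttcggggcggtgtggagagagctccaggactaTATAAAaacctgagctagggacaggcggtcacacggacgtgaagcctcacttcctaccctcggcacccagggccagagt
Ckm: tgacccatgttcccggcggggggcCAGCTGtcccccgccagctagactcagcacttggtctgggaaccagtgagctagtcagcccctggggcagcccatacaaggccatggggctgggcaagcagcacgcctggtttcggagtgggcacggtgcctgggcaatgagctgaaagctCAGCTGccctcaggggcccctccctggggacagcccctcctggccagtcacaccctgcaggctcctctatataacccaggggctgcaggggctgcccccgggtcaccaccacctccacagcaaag
Myh4: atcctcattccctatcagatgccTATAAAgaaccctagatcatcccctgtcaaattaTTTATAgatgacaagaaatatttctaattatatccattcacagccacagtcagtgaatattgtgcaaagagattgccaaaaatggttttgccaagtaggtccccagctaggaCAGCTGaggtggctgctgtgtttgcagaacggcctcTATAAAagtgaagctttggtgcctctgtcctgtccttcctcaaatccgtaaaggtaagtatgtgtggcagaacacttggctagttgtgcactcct
Acta1 holds TATAAA 29 bases before its start and CAGCTG 237 bases before it. Ckm holds CAGCTG at 226 and at 75 bases before the start. The exact run TATAAA is not in its window, and other forms of the TATA box were not searched for. Myh4 holds CAGCTG 81 bases before the start and TATAAA at 227 and 45 bases before it, with a reverse-strand match at 193. Of 27457 promoters of the same length, 14.3% hold TATAAA and 15.1% hold CAGCTG. A match is a run of letters and not a measured site.

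Of 28 muscle genes measured, 6 were lower and 1 was higher, beside 4.05% lower and 2.89% higher over all genes, with a median of -0.10. Above 250, 4 of 12 were lower and 1 was higher, beside 8.18% lower and 9.02% higher in that class. The 6 lower ones were Acta1, Ckm, Myh4, the troponin gene Tnnc2, the slow myosin gene Myh7 and the muscle enolase gene Eno3. Myh8, described above, was higher. Tpm1, a tropomyosin listed with smooth muscle and abundant in striated muscle, was 588 and 528 in Sham 50d, against 2100.4, 1523 and 1930.4 in Sham 21d, 3.23-fold lower, a change of -1.69 (SE 0.23, adjusted p = 0.000533). The calls of Acta1, Ckm, Myh4 and Myh8 passed with each array left out. Those of Eno3, Myh7 and Tnnc2 ended without 1 array or more (adjusted p from 0.0728 to 0.367), Eno3 and Myh7 among them without Sham 21d replicate 1 (adjusted p from 0.0991 to 0.103). The part of muscle tissue in the samples, whose summed markers are given above, was not tested.

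The myelin genes that passed were lower at 50 days. Mbp, the myelin basic protein of Schwann cells, was 243 and 266 in Sham 50d, against 2509.8, 1871 and 1629.9 in Sham 21d, a change of -2.88 (SE 0.23, adjusted p = 8.9e-06) and at least 6.3-fold lower. Mal, a proteolipid of myelin membranes, was 428 and 450.5 in Sham 50d, against 1616, 883 and 948 in Sham 21d, 2.47-fold lower. Ugt8, the enzyme that makes the myelin lipid galactosylceramide, was 589 and 646 in Sham 50d, against 1250.4, 1246 and 1034 in Sham 21d, 1.88-fold lower, a change of -0.91 (SE 0.16, adjusted p = 0.00306). In all 3 genes every 50-day value lay below every 21-day value, as holds for every lower call. Pmp22 did not pass on its brighter probe set, 6876 and 5639 in Sham 50d, against 11710.1, 5646 and 6155 in Sham 21d, while its dimmer one, with 496 and 434 in Sham 50d, against 2104, 1488 and 1575 in Sham 21d, was 3.58-fold lower. Cnp, another myelin enzyme, was 413 and 504 in Sham 50d, against 1093, 944 and 973 in Sham 21d, and did not pass (adjusted p = 0.134). Of 9 myelin genes 3 were lower and none was higher, with a median of -0.25. All 3 are among the 8 above 250, a class in which 8.18% of genes were lower and 9.02% higher. Without Sham 21d replicate 1 that median was 0.02 and 2 were lower, the call of Mal having ended (adjusted p = 0.135). Mal ended without each other array too, with adjusted p up to 0.235, and Mbp and Ugt8 did not.

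Of 16 genes of satellite glia and immature Schwann cells 1 passed, near the 6.95% of all genes that did. Cd9, a membrane tetraspanin of both cell types, was 144 and 147 in Sham 50d, against 666, 972 and 888 in Sham 21d, at least 2.69-fold lower, and ended when either 50-day array was left out (adjusted p from 0.0939 to 0.106). Glul, the glutamine synthetase of satellite glia, was 3911 and 3659.99 in Sham 50d, against 3013, 1739 and 1819.8 in Sham 21d, and did not pass (adjusted p = 0.123). The summed markers of satellite glia were 9599 and 8286 in Sham 50d, against 26313, 5330 and 5676 in Sham 21d, so replicate 1 lay far above the other arrays. The Schwann cell markers summed to 12345 and 12906 in Sham 50d, against 22960, 16171 and 15850 in Sham 21d.

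Among neuronal genes most of the bright members did not pass, and the calls went both ways. Of 23 genes of the neuronal cytoskeleton and of neurons at large, 3 were higher and 2 lower, with a median of 0.04. All 5 are among the 19 above 250, where 17.2% of genes passed. Ina, the intermediate filament internexin, was 1020.00 and 1052 in Sham 50d, against 381, 566 and 367 in Sham 21d, 2.36-fold higher. Rtn1, a reticulon of neuronal endoplasmic reticulum, was 2799 and 3542 in Sham 50d, against 1427, 1995 and 2176 in Sham 21d, 1.71-fold higher. Mapt, the microtubule protein tau, was 5667 and 5499.8 in Sham 50d, against 3933, 3284 and 3114 in Sham 21d, 1.63-fold higher, though its 2 other probe sets changed by -0.44 and -0.49 and did not pass. Syn2 and Cplx1, both of the presynaptic terminal, were the lower ones and were below background at 50 days. With quantile normalization 1 gene was higher and 4 were lower. Syn2 alone kept its call without each of the 5 arrays, and the others ended without at least 1 (adjusted p from 0.052 to 0.381), Ina and Cplx1 without Sham 21d replicate 1 (adjusted p from 0.052 to 0.117).

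Peptide-making nociceptors gave no call among 10 genes by limma, beside 6.95% of all genes passing, and 4 had an unadjusted p under 0.05. Over all genes 953 of 4736 had such a p, and above 250, where 7 of the 10 lay, 549 of 1308 did. Calca, the precursor of the neuropeptide CGRP, was 3026 and 3007 in Sham 50d, against 734, 1946 and 1893 in Sham 21d, a change of 1.10 (SE 0.39, adjusted p = 0.123). Sst, somatostatin, was 1543 and 1755 in Sham 50d, against 522, 599.8 and 638 in Sham 21d, a change of 1.47 (SE 0.73, adjusted p = 0.3). The groups did not overlap for either gene, and neither passed. Tac1, the precursor of substance P, was 2215 and 2083 in Sham 50d, against 1108, 2312 and 2093 in Sham 21d, and overlapped. Calcb, the second CGRP gene, was below background at 50 days with a change of -2.92 (SE 0.91, adjusted p = 0.0747).

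Of 11 genes of nociceptors without peptides 2 passed, beside 6.95% of all genes. Of the 8 above 250 only 1 passed, beside 17.2% of genes in that class. Ret, a receptor for growth factors of the GDNF family, was higher with 1295 and 1285 in Sham 50d, against 950.03, 961 and 942 in Sham 21d, 1.35-fold. The complement regulator Cd55 was lower and below background at 50 days. Both calls ended without 1 array or more (adjusted p from 0.0519 to 0.184), that of Ret also without Sham 21d replicate 1 (adjusted p = 0.0712). None of 9 sodium channel genes passed by limma, beside 6.95% of all genes. Of the 9, 1 had an unadjusted p under 0.05, as did 953 of all 4736 genes. Scn11a, the channel Nav1.9 of small neurons, was 1404 and 1363 in Sham 50d, against 1202, 895 and 908 in Sham 21d (adjusted p = 0.256), and Scn10a, Nav1.8, was 468 and 297 in Sham 50d, against 377, 344 and 331 in Sham 21d. The ATP receptor gene P2rx3 was 1411 and 1673 in Sham 50d, against 1026, 1767 and 713 in Sham 21d, and the heat receptor gene Trpv1 was 171 and 189.96 in Sham 50d, against 449.7, 283 and 91.1 in Sham 21d. Both overlapped.

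Of 15 genes of large sensory neurons 3 were lower, beside 4.05% of all genes. Of the 7 above 250 only 1 passed, beside 17.2% of genes in that class. Spp1, osteopontin, was 780.1 and 886 in Sham 50d, against 1318, 1561 and 1645 in Sham 21d, 1.79-fold lower. The neurotrophin receptor gene Ntrk2 and the calcium sensor gene Vsnl1 were lower with no value above background in either group. Of these calls that of Vsnl1 held without each array, but not with a floor of 200 or with only the 5 arrays fitted. Those of Spp1 and Ntrk2 ended without 1 array or more. Of 26 potassium channel genes only the subunit gene Kcnab2 passed, beside 6.95% of all genes. Kcnab2 was higher, 1842 and 1821 in Sham 50d, against 1155, 1164 and 1148 in Sham 21d, and its call ended when either 50-day array was left out. Of 23 synaptic genes 4 were lower (Syn2, Cplx1, Rab3a and Syt4) and 2 higher (Sv2b and the fusion protein gene Stx1a), beside 4.05% lower and 2.89% higher over all genes, with a median of -0.49. Among the 12 above 250 the median was 0.29, with 2 lower and 2 higher, beside 8.18% lower and 9.02% higher in that class. With a floor of 200 none of the 23 was lower and 2 were higher. Sv2b, Syn2 and Rab3a passed with each array left out, and Cplx1, Stx1a and Syt4 ended without 1 or more (adjusted p from 0.052 to 0.381).

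Of 25 genes that neurons switch on when their axon is cut, 20 (80.0%) were above background on none of the 5 arrays, as were 68.1% of all 4736 genes. Among the 20 were the neuropeptides Npy and Gal and the transcription factor gene Atf3. Gap43, of growing axons, was 1081 and 1333 in Sham 50d, against 657, 1402 and 1223 in Sham 21d, and overlapped. Only Cacna2d1 passed. This calcium channel subunit, to which gabapentin binds, was 389.6 and 413 in Sham 50d, against 1497, 1139 and 1154 in Sham 21d, a change of -1.61 (SE 0.16, adjusted p = 6.58e-05) and 3.04-fold lower. It passed with each of the 5 arrays left out. It is 1 of 14 calcium channel genes measured, and no other passed, near the 6.95% of all genes.

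Ribosomal protein genes gave the largest share of calls of any list. All 36 measured were above 250, and 15 were lower and 2 higher, beside 8.18% lower and 9.02% higher among genes above 250. Their median was -0.53, against 0.28 for those genes. Rpl19 was 713 and 689 in Sham 50d, against 2886, 2181 and 1842 in Sham 21d, a change of -1.67 (SE 0.25, adjusted p = 0.000999) and 3.18-fold lower. Rpl24 was 607 and 728 in Sham 50d, against 2525, 1998 and 1926 in Sham 21d, 3.16-fold lower. Rps10 was 165 and 123 in Sham 50d, against 579, 489 and 514 in Sham 21d, at least 1.72-fold lower, and Rpl13a was 3.2-fold lower. In each of these genes all 50-day values lay below all 21-day values, as holds for every lower call. Rpl39 was 4429.6 and 3835 in Sham 50d, against 2779, 2653 and 2293 in Sham 21d, 1.6-fold higher, and Rpl5 was 434 and 439 in Sham 50d, against 213, 197 and 191 in Sham 21d, 2.09-fold higher. Rps29, the brightest of the list, did not pass.

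The lower ribosomal genes numbered 14 without Sham 21d replicate 1, 11 and 10 without Sham 50d replicate 1 and 2, and 17 with quantile normalization. With the 14- and 21-day sham arrays pooled as the earlier time 12 were lower and 1 higher, and the median was -0.11. Rpl13a, Rpl14, Rpl19, Rpl24, Rpl26, Rpl4, Rpl6 and Rps10 passed with each array left out. The other 9 ended without 1 or more (adjusted p from 0.0509 to 0.356), Rpl5 and Rpl7a without Sham 21d replicate 1 (adjusted p from 0.0536 to 0.0727). With arrays scaled to the median of bright probe sets no ribosomal gene was higher, the calls of Rpl39 and Rpl5 having ended, and 14 were lower. Ribosomal protein genes have many near-identical copies, so a probe set can read more than its own gene.

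Of 37 genes of oxidative phosphorylation 5 were lower and 3 higher, with a median of -0.04. All 8 are among the 34 above 250, a class in which 17.2% of genes passed. Atp5f1b, the catalytic subunit of ATP synthase, was 1957 and 1935 in Sham 50d, against 6002, 4217 and 3727 in Sham 21d, 2.33-fold lower. Cox6c, a subunit of cytochrome c oxidase, was 4000.5 and 3936 in Sham 50d, against 1371, 1844 and 2057 in Sham 21d, 2.28-fold higher. Atp5po, of the ATP synthase stalk, was 5239 and 5216 in Sham 50d, against 2855, 2982 and 2927 in Sham 21d, 1.79-fold higher. Ndufb6 of complex I was also higher, and Atp5f1c, Ndufv2, Ndufa5 and Cox6a2 were lower. Cox6c kept its call without each of the 5 arrays. The other 7 ended when either 50-day array was left out (adjusted p from 0.0528 to 0.227), and 6 of them, all but Atp5f1b, without Sham 21d replicate 1 (adjusted p from 0.0572 to 0.132).

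Of 19 glycolysis genes 3 were higher and 2 lower, beside 6.95% of all genes passing. Above 250, 4 of 13 passed, beside 17.2%. Pgam1, phosphoglycerate mutase, was 6045 and 5950.4 in Sham 50d, against 2421, 3621 and 3867 in Sham 21d, 1.85-fold higher, and Eno1, enolase, was 3667 and 4331 in Sham 50d, against 3053, 2257 and 2466 in Sham 21d, 1.55-fold higher. The glucose transporter gene Slc2a1 was 1.59-fold higher, while Ldhb, a lactate dehydrogenase, was 1.64-fold lower and the muscle gene Eno3 was lower and below background. Each of the 5 calls ended without 1 array or more (adjusted p from 0.0516 to 0.263), and those of Slc2a1 and Eno3 without Sham 21d replicate 1 (adjusted p from 0.0525 to 0.103). The glycolytic enzyme Aldoc was 544 and 603 in Sham 50d, against 2558, 1742 and 1708 in Sham 21d, with no overlap, and did not pass (adjusted p = 0.064).

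Of 16 genes of cholesterol synthesis and uptake 3 were lower and none higher, and of 19 genes of fatty acid metabolism 4 were lower and none higher, with medians of -0.22 and -0.11. Over all genes 4.05% were lower and 2.89% higher, and Scd is counted in both lists. Above 250, 2 of 10 and 2 of 11 were lower, beside 8.18% of genes in that class. Sqle, squalene epoxidase, was 197 and 183 in Sham 50d, against 480.1, 593 and 537 in Sham 21d, a change of -1.42 (SE 0.16, adjusted p = 0.000142) and at least 1.75-fold lower. Scd, the desaturase of stearate, was 236 and 122 in Sham 50d, against 1058, 629 and 664 in Sham 21d, at least 2.47-fold lower. Hadhb, of mitochondrial beta-oxidation, was 182 and 159.8 in Sham 50d, against 504, 336 and 325 in Sham 21d, at least 1.26-fold lower. In these genes no 50-day value was above background and every 21-day value was. Mvd, Acadm and Cpt2 fell with no value above background in either group. Scd2, a relative of Scd and 1 of the 30 brightest genes, was 5977 and 5181 in Sham 50d, against 4713, 4343 and 4069 in Sham 21d, and did not pass. Sqle passed with each array left out, and Scd, Hadhb, Mvd, Acadm and Cpt2 ended without 1 or more (adjusted p from 0.0523 to 0.218), of which Acadm without Sham 21d replicate 1 (adjusted p = 0.0562).

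Of 27 genes of collagens and matrix 3 were lower and 1 higher, with a median of -0.32. Of the 17 above 250, 3 passed, near the 17.2% of all genes in that class. Col3a1, the collagen of soft connective tissue, was 386 and 469.7 in Sham 50d, against 1311, 1200.1 and 1241 in Sham 21d, a change of -1.52 (SE 0.22, adjusted p = 0.000738) and 2.87-fold lower, and its second probe set fell by 1.52 as well. Col1a1, the main fibrillar collagen, was 4001 and 3904 in Sham 50d, against 3969.7, 3985 and 4471 in Sham 21d, with overlap and a change of -0.07. Sparc, a collagen-binding protein, did not pass on its brightest probe set, while its 3 others passed as lower, by -0.85 to -1.78. Serpinh1, the collagen chaperone, was lower with no value above background, Fn1, fibronectin, was 1.37-fold lower and Timp1, an inhibitor of matrix proteases, 1.44-fold higher. The calls of Fn1 and Timp1 ended without each of the 5 arrays (adjusted p from 0.0532 to 0.259), Sham 21d replicate 1 included.

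Of 18 heat shock genes 2 were higher and 2 lower, and of the 11 above 250 2 passed, beside 17.2% of genes in that class. Hspe1, the small partner of the mitochondrial chaperonin, was 772 and 825 in Sham 50d, against 301, 291 and 305 in Sham 21d, a change of 1.37 (SE 0.19, adjusted p = 0.000617) and 2.58-fold higher, and passed with each array left out. Dnajc5 was 1.35-fold higher, and Stip1 and Hspa2 were lower with no value above background. These 3 ended when either 50-day array was left out (adjusted p from 0.068 to 0.286), and Dnajc5 without Sham 21d replicate 1 (adjusted p = 0.115). Of 19 oxidative stress genes 3 passed, all among the 12 above 250, beside 17.2% of genes in that class. Txnrd1, thioredoxin reductase, was 1173 and 1261 in Sham 50d, against 343, 664 and 501 in Sham 21d, 2.46-fold higher. The lipid peroxidase gene Gpx4 was 573 and 623 in Sham 50d, against 1167, 1027 and 1337 in Sham 21d, 1.93-fold lower, and Prdx2 was 1.69-fold lower, a call that ended without Sham 21d replicate 1 (adjusted p = 0.109). Mt3, the metallothionein of nerve tissue, was 2449 and 1469.9 in Sham 50d, against 471, 799 and 518 in Sham 21d, and did not pass (adjusted p = 0.607).

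Of 20 immediate early genes, which cells switch on within minutes of a stimulus, Fos and Egr1 were higher, beside 2.89% of all genes. Both are among the 5 above 250, a class in which 9.02% of genes were higher. Fos was 395 and 294 in Sham 50d, against 86.5, 207 and 161 in Sham 21d, at least 1.47-fold, and Egr1 was 398 and 361 in Sham 50d, against 313, 256 and 248 in Sham 21d, 1.37-fold. Both ended when either 50-day array was left out (adjusted p from 0.0632 to 0.248), and Fos without Sham 21d replicate 1 (adjusted p = 0.0563). Klf9, a transcription factor that glucocorticoids induce, was 861 and 954 in Sham 50d, against 193, 438 and 546 in Sham 21d, 2.45-fold higher, and ended when either 50-day array was left out (adjusted p from 0.0868 to 0.126). Of 19 proteasome and ubiquitin genes Psmd1 and Psmb4 were higher and Psmc4 lower. All 3 are among the 18 above 250, near the 17.2% of genes that passed in that class. Psmd1 was 3772 and 3697 in Sham 50d, against 1592, 1850.2 and 2334 in Sham 21d, 1.96-fold. Their calls ended without 1 array or more (adjusted p from 0.0531 to 0.198), that of Psmb4 also without Sham 21d replicate 1 (adjusted p = 0.0865).

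Immune genes gave no call by limma, beside 6.95% of all genes passing, and 6 of the 61 measured had an unadjusted p under 0.05. Over all genes 953 of 4736 had such a p. None passed among 13 macrophage, 14 antigen presentation, 11 interferon-stimulated, 12 lymphocyte and 11 mast cell and granulocyte genes. In that order 9, 6, 7, 12 and 10 of them were above background on none of the 5 arrays, beside 68.1% of all genes. For such genes the lack of a call does not show that they were unchanged. Lyz2, the lysozyme of macrophages, was 588 and 468 in Sham 50d, against 684, 1166 and 634 in Sham 21d. RT1-Db1, a class II chain, was 915 and 718 in Sham 50d, against 163, 571 and 369 in Sham 21d. Neither overlapped and neither passed (adjusted p = 0.353 and 0.121). None of 12 endothelial, 6 blood and 16 cell division genes passed either, and of these 2 endothelial genes had an unadjusted p under 0.05. All 12 endothelial, 1 blood and 11 cell division genes were above background on none of the 5 arrays. Of 13 fat cell genes Lep was higher and Scd lower, beside 6.95% of all genes passing, and both calls ended without 1 array or more. Both genes are among the 4 above 250, a class in which 17.2% of genes passed. Of 32 genes of GABA, glutamate, glycine and nicotinic receptors only Chrna3 passed, with no value above background, beside 6.95% of all genes. Of 26 neurotrophin and GDNF genes Ret and Ntrk2 passed, as above, near the 6.95% of all genes. Of 10 clock genes Hlf was higher with no value above background, beside 2.89% higher over all genes.

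Probe sets of the same gene often disagreed. Of 221 genes with at least 2 probe sets above 250, 117 held a call, all probe sets of 13 of them passed in 1 direction, and 8 had calls in both directions. In 57 of the 117 another bright probe set had the opposite sign. Gnas, 1 of the 30 brightest, had 1 probe set 2.65-fold lower, 1 that was 1.94-fold higher and 2 that did not pass. The range of changes within a gene had a median of 1.08. The kind of sequence from which a probe set was designed also went with direction. Over all 2004 bright probe sets 12.1% were lower and 9.38% higher. The largest class, 990 from other mRNA or gene sequences, had 128 lower and 74 higher, with a median of 0.12. Another 18, from untranslated regions, had 1 lower and 5 higher. Of 121 bright probe sets whose names mark a coding sequence, 44 were lower and 15 higher, with a median of -0.49. Of 875 designed from expressed sequence tags, which mostly read the 3′ end, 70 were lower and 94 higher, with a median of 0.31. The GAPDH control was likewise further apart between the groups in the middle than at the 3′ end, as given above, and the part of this in the calls was not tested.

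The 14-day sham arrays, 2 in number, add another day for these genes. Acta1 was 1543 and 1870.1 at 14 days, 1383, 1803 and 1741 at 21 days and 312 and 262 at 50 days. Mbp was 1697 and 1604 at 14 days, 2509.8, 1871 and 1629.9 at 21 days and 243 and 266 at 50 days. For both genes the 14- and 21-day values overlapped and the 50-day values lay below them. Cacna2d1 was 573 and 629 at 14 days, 1497, 1139 and 1154 at 21 days and 389.6 and 413 at 50 days, so its 21-day values were the highest of the 3 days. Gstt2 was 2833 and 2525 at 14 days, 279, 658 and 546 at 21 days and 2522 and 2388 at 50 days, and Hspe1 was 783 and 961 at 14 days, 301, 291 and 305 at 21 days and 772 and 825 at 50 days. For these genes the 21-day values alone were low. Cox6c was 358 and 219 at 14 days, 1371, 1844 and 2057 at 21 days and 4000.5 and 3936 at 50 days, ascending from day to day. Egr1 was 743 and 762 at 14 days, 313, 256 and 248 at 21 days and 398 and 361 at 50 days, so its 50-day level lay below its 14-day level. The 14-day arrays had GAPDH 3′ to middle ratios of 1.90 and 1.74.

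**Figure D5:**
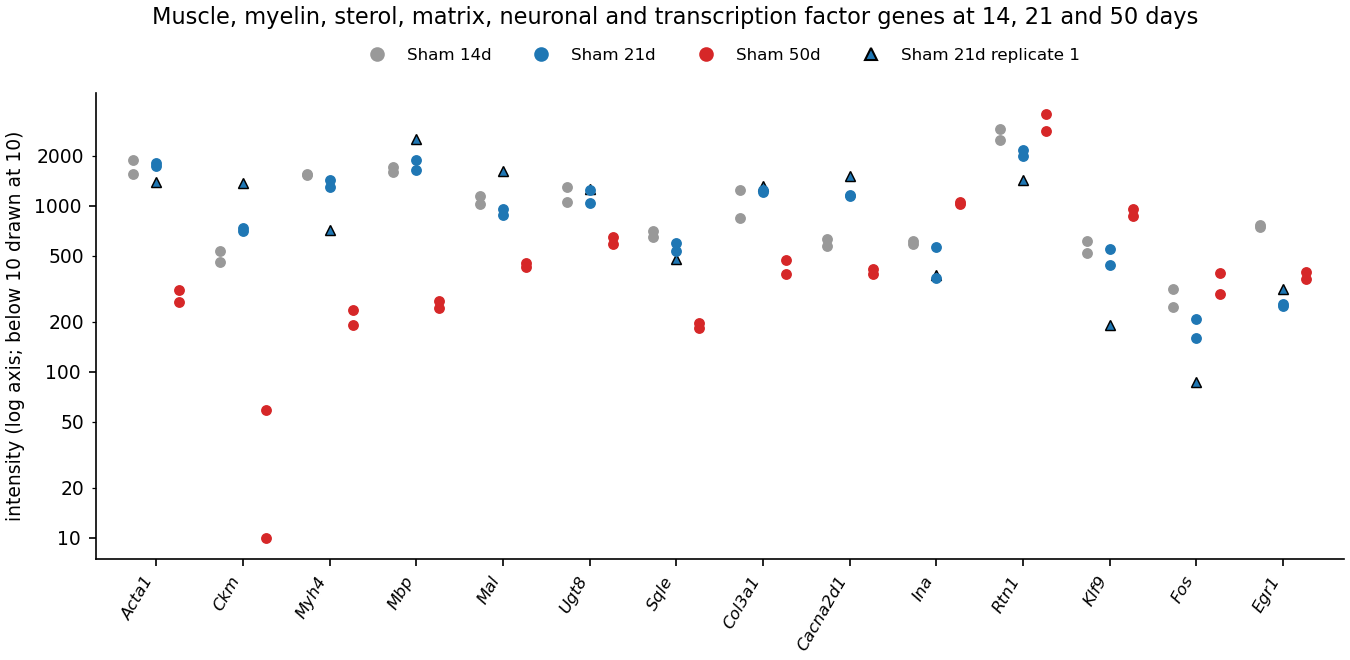
Intensity on a log axis of 14 genes named above at 14 days (grey), 21 days (blue, replicate 1 as triangles) and 50 days (red), with values below 10 drawn at 10. Each point is 1 sham array. Acta1, Myh4, Mbp, Mal, Ugt8, Sqle and Ckm are lowest at 50 days, and Cacna2d1 is highest at 21 days.

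The Seltzer arrays of the same days share no sample with the sham arrays and were set beside them. Of the 188 bright probe sets higher at 50 days in sham, 85 were higher and 16 lower in Seltzer 50d than in Seltzer 21d, beside 23.7% higher and 29.8% lower over all 2004. Of the 243 lower in sham, 199 were lower and 6 higher in Seltzer. Over the 2004 the changes in sham and in Seltzer correlated across probe sets, which are not independent replicates, at Pearson's r = 0.59 and Spearman's rho = 0.61. Mbp had 252 ± 57 in Seltzer 50d and 1766 ± 204 in Seltzer 21d (SD, n = 2 and 3), a change of -2.74 (adjusted p = 2.92e-06) beside -2.88 in sham. Myh8 had a change of 2.57 in Seltzer beside 2.09 in sham, and Rpl19l4 of 2.60 beside 3.51. The Seltzer 50d arrays had the higher background levels, 765 and 597, and GAPDH 3′ to middle ratios of 8.89 and 5.10, against 1.22 to 1.60 in Seltzer 21d.

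The change over time itself differed between sham and Seltzer for 376 of the 2004 (18.8%), by the test of that difference, and for 131 of the 431 called in sham. Acta1, Myh4, Ckm and Cox6a2 were among these, while the muscle genes Myh8, Tnnc2, Myh7, Eno3 and Myl11 did not pass this test. Acta1 had 1863 ± 438 in Seltzer 50d and 1077 ± 292 in Seltzer 21d, a change of 0.80 (adjusted p = 0.0128), beside -2.45 in sham, and the difference of the changes was -3.25 (adjusted p = 2.29e-05). Myh4 changed by 0.60 in Seltzer, which did not pass, and the difference was -2.88 (adjusted p = 0.00945). Sst had 7.72 ± 253 in Seltzer 50d and 496 ± 98.2 in Seltzer 21d, a change of -3.15 (adjusted p = 0.00675) beside 1.47 in sham, and the difference was 4.62 (adjusted p = 0.0167). Scn11a changed by -1.10 (adjusted p = 0.00268) in Seltzer beside 0.47 in sham, a difference of 1.57 (adjusted p = 0.00844). Both nociceptor genes were thus called lower at 50 days in Seltzer ganglia and did not pass in sham ganglia. For Sst the Seltzer 21d mean of 496 lay under the Seltzer 50d background levels of 765 and 597. An unchanged Sst signal would have been below background on those arrays, so the size of its fall is uncertain.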

How the data were processed

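Each sample is 1 Affymetrix rat array, deposited as linear intensity values per probe set. What the authors did to make these intensities (software, normalization) is not stated in the labels or files used here. From the values, all arrays share a mean of about 150.2 once 2% is trimmed at each end. The 59 control probe sets were set aside and 8740 tested. Intensities below 0 were set to 0, 16 was added and log2 taken. limma 3.58.1 in R 4.3.3 was fitted to all 20 arrays in 8 groups (12 residual degrees of freedom), two-sided, with Benjamini-Hochberg adjustment at 0.05. The fit was tested on simulated data. The number of arrays limits the precision. Where a group was above background on no array, the fold counts from the higher of its background and its own signal. Symbols came from the platform annotation, updated through RefSeq: 7006 probe sets had 1 symbol, 308 several and 1426 none. Each gene was taken on its brightest probe set over all arrays, except the largest rises and falls.

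Named genes were the 30 brightest, the 14 largest rises and falls, up to 4 members of each of 36 lists with the largest change, and a set of ganglion genes. The other called list members were added after their values were seen. Members and lists were chosen with earlier results of these data known. Of 4737 measured genes with an identifier, 3871 had a promoter sequence. Alternatives were other pseudocounts, floors, filters, normalizations, array weights, sample sets, a replicate block and leaving out each array.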

Additional observations from a re-analysis of the deposited data

Results flagged for a closer look

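In 12 named genes the change between 21 and 50 days differed between sham and Seltzer ganglia, by limma's test of the difference of the changes (sham change minus Seltzer change, log2), adjusted over all probe sets. No cause was tested. In the muscle genes the sham change was the more negative one. The difference was -3.25 for Acta1 (adjusted p = 2.29e-05), -2.88 for Myh4 (0.00945), -4.00 for Ckm (0.00887) and -5.12 for Cox6a2 (0.0385). Ckm changed by -0.71 in Seltzer, which did not pass, and Cox6a2 by 1.46, which did not pass either.

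In the flagged genes of neurons the sham change was the more positive one. The difference was 4.62 for Sst (adjusted p = 0.0167), 1.57 for Scn11a (0.00844), 1.83 for P2rx3 (0.0105), 1.28 for Prph (0.0331), 2.17 for Sv2b (0.0126), 5.40 for Nptn (0.0316) and 0.95 for Cacna2d1 (0.0263). P2rx3 changed by 0.49 in sham, which did not pass, and by -1.34 in Seltzer (adjusted p = 0.00259). Cacna2d1 was lower at 50 days in both, by -1.61 in sham and -2.55 in Seltzer. Over all probe sets above 250 the median change was also the more positive in sham, 0.21 beside -0.10 in Seltzer. This direction is therefore not particular to genes of neurons. Actb, the beta actin gene, had a difference of 0.96 (adjusted p = 0.0221), with -0.54 in sham, which did not pass, and -1.50 in Seltzer. The 2 Seltzer 50d arrays also had the highest background levels of these groups, 765 and 597, whose part in these differences was not tested.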

How the results depend on the processing

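Over all probe sets 652 were called in sham (431 above 250) and 2395 in Seltzer. The sham count was 378 (216 above 250) with only the 5 arrays fitted and 1515 (875) with array weights. Leaving out 1 array gave 313 to 572 (204 to 389) in sham and 1488 to 2234 in Seltzer, lowest without replicate 1 of each 50-day group. The Seltzer count was 1089 with only probe sets above 250, since fewer were tested, and 1590 with a floor of 200. The cause of the other shifts was not tested. With 14- and 21-day sham pooled as the earlier time, chosen after seeing the data, Egr1 turned to -0.25 and Rpl27 to 0.49. Seltzer split into 1393 higher and 1002 lower, against 918 and 1145 with quantile normalization and 1036 and 1126 with arrays scaled to the median of bright probe sets. With the replicate number as a block (replicate block) the counts were 639, 418 and 2313. Same-numbered arrays of Sham 50d and Sham 21d deviated together at 0.0095 and -0.0238 over all probe sets, which covers only these groups. At 21 days replicate 1 had the highest maximum intensity of each group: 26056 in Sham, 23670 in Seltzer and 19587 after chronic constriction injury. Whether same-numbered arrays share a batch was not tested. The other settings left the total counts within 1.5 times, but with a floor of 200 the sham calls were 230 higher and 211 lower, and with only probe sets above 250 they were 276 and 285, against 231 and 421. The floor ended 40 of 107 named calls, and fitting only the 5 sham arrays at 21 and 50 days ended 75. Among these 75 were Tpm3, Ckm, Myh4, Sv2b, Syn2, Rab3a, Vsnl1, Ugt8, Cox6c, Txnrd1, Gpx4 and Rpl19. In the fit of all groups each of them had passed with any 1 array left out. Of 107 named called probe sets 14 passed under every setting, among them Acta1, Mbp, Cacna2d1 and Rpl19l4, and 93 did not pass under at least 1. Dim genes are limited by background: values under it have no order.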
